A study of Mus musculus with 2 samples.

Results

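The integrated stress response was read in epididymal white adipose tissue (WAT) through 10 genes taken by name: Atf4, which encodes its central transcription factor, and Atf5, Ddit3, Trib3, Asns, Chac1, Sesn2, Slc7a11, Psat1 and Mthfd2, which ATF4 is known to induce. They are 10 of the 32285 genes listed in the files, and the rule names them without a threshold on a measured value, although they were chosen with earlier results of these data known, so their counts are no independent evidence of a direction. The symbols matched 11 entries, because Ddit3 is listed under 2 identifiers, and the second of these held 0 unique molecular identifiers (UMIs, counts of single RNA molecules) in both libraries. All mice were male C57BL/6N animals, 8 weeks old when a high-fat (HF) diet began. They ate this diet for 6 weeks and stayed on it for 8 further weeks with intraperitoneal injections, 3 times a week, of either PBS (HF-PBS, the control) or homoharringtonine (HF-HHT). Homoharringtonine (HHT) is a plant alkaloid that blocks elongation of new proteins on the ribosome and is used against leukemia. Each library was made from nuclei of frozen tissue pooled from 3 mice, so there was 1 library per treatment, the spread between mice could not be measured and no test between treatments was possible. Every interval below is an exact 95% interval that covers counting error only, and a difference of at least 1.5-fold is given as a size, not as a test.

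Cells slow translation under stress by phosphorylating the initiation factor eIF2alpha, through kinases that sense unfolded protein in the endoplasmic reticulum (PERK), missing amino acids (GCN2), double-stranded RNA (PKR) or heme shortage and mitochondrial stress (HRI). General initiation then drops while the Atf4 mRNA is translated more efficiently, so ATF4 protein is set largely at translation and the level of its mRNA need not follow its activity. ATF4 in turn induces enzymes and carriers that restore amino acids and glutathione, regulators of apoptosis and mTORC1, and inhibitors that end the response. The 10 genes were compared here as a readout of stress on translation during HHT treatment, class of nuclei by class of nuclei.

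ATF4 with a C/EBP partner binds a composite element whose core is often written as TGATGNAA, where N is any base. This word was searched on both strands of promoter sequences from RefSeq (GRCm38.p6), in windows of 300 bases from 250 before to 50 after each annotated start. All 10 genes had a window, 12 windows in all, and 4 of the 12 windows held the word, 1 in each of 4 genes, against 3.97% of the 32851 windows of all genes. A match describes letters and not an occupied site, and the absence of a match says only that these letters are not in the window. The 4 stretches shown are those of every gene among the 10 with the word in its window, Asns, Chac1, Slc7a11 and Trib3, and were not picked by level or ratio. Asns is shown at chr6:7693210-7693262 on the minus strand, Chac1 at chr2:119351019-119351086 on the plus strand, Slc7a11 at chr3:50443623-50443709 on the minus strand and Trib3 at chr2:152344028-152344057 on the minus strand. Each is written 5′ to 3′ along its gene, with the word in capitals. TTNCATCA is the same word on the opposite strand.
Asns: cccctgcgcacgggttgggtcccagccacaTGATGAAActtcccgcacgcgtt
Chac1: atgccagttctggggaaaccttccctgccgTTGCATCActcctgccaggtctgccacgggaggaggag
Slc7a11: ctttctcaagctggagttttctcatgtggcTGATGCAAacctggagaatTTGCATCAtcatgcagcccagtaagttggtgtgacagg
Trib3: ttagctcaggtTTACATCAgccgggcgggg
The word began 23 bases before the RefSeq start of Asns and 193 bases before that of Chac1. Slc7a11 carried it on both strands, 66 and 47 bases before its start. In Trib3 it lay 15 bases after the RefSeq start.

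By role and position (GRCm38, GENCODE vM21), the transcription factors were Atf4 (chr15:80255184-80257541, plus strand), Atf5 (chr7:44812256-44816658, minus strand), a relative of ATF4 that is itself controlled at translation, and Ddit3 (chr10:127290774-127296288, plus strand), which encodes the pro-apoptotic factor CHOP. Trib3 (chr2:152337422-152344032, minus strand) encodes a pseudokinase that feeds back on ATF4 and CHOP. Sesn2 (chr4:132492032-132510501, minus strand) encodes a leucine-binding inhibitor of mTORC1 signaling. Chac1 (chr2:119351229-119354381, plus strand) encodes an enzyme that degrades glutathione, and Slc7a11 (chr3:49892526-50443614, minus strand) the cystine carrier that feeds glutathione synthesis. Asns (chr6:7675169-7693254, minus strand) encodes asparagine synthetase, Psat1 (chr19:15904678-15947337, minus strand) a transaminase of serine synthesis and Mthfd2 (chr6:83305691-83325908, minus strand) a mitochondrial enzyme of folate metabolism. Atf5 overlaps Nup62 and Il4i1 on the opposite strand, Ddit3 overlaps Mars and Gm4189 on the opposite strand and its own second entry on the same strand, and Slc7a11 spans 551089 annotated bases that hold 5 other annotated genes, 2 of them on its strand. Sesn2 overlaps Gm12981 and Mthfd2 overlaps Gm43890 on the same strand, and Psat1 overlaps the pseudogene Gm3329 on the opposite strand. Ddit3, Sesn2, Slc7a11 and Mthfd2 share their strand with another annotated entry, and their counts may be less certain for that. Apart from the second Ddit3 entry, whether those entries were in the reference used for counting was not checked. Atf4, Trib3, Asns and Chac1 overlap no other annotated gene. Atf5 and Psat1 overlap others only on the opposite strand, and whether this affected their counts was not tested.

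The libraries held 76197757 UMIs (HF-PBS) and 73313558 UMIs (HF-HHT), and 6658 and 6446 nuclei were kept, with medians of 4310.5 and 3974.5 UMIs and 13 barcodes present in both sets. Nuclei were clustered without the 10 genes or the pathway genes described below, and clusters were named from marker genes. The class labeled monocytes and dendritic cells was named from dendritic cell genes such as Flt3 and Clec9a, which also led it. Its values are therefore not to be read as those of monocytes. The mix of classes differed widely between the libraries. Adipocytes numbered 150 and 844 nuclei in HF-PBS and HF-HHT, adipocyte progenitor cells (APCs) 751 and 677, and macrophages 3612 and 2252. B cells numbered 741 and 46. The files also held 689 duct-like and 119 multiciliated epithelial nuclei in HF-HHT and none of either in HF-PBS, and an erythroid-like cluster of 49 and 237 nuclei, of which only HF-HHT nuclei remained erythroid-like at finer clustering. Levels are given as CPM, the UMIs of a gene in a class divided by all UMIs of that class in the library and scaled to 1000000, and are compared within a gene and never between genes. A gene counted as measured in a class with at least 20 UMIs over both libraries. Across all measured genes the median log2 ratio of HF-HHT over HF-PBS was 0.31 in adipocytes, 0.17 in APCs and 0.17 in macrophages. Scaling by trimmed means (TMM) would move every log2 ratio by -0.19, -0.20 and -0.20, respectively.

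Atf4 itself was close to even between adipocytes, APCs and macrophages. In HF-PBS its level lay between 28.6 CPM in endothelial cells and 59.5 CPM in mesothelial cells, leaving out the erythroid-like cluster, which stood apart at 178 CPM on 11 UMIs. The interval of mesothelial cells (46.8 to 74.5) lay over those of adipocytes, APCs and macrophages. Barcodes with free RNA and no nucleus read 77.1 and 79.2 CPM of Atf4 in HF-PBS and HF-HHT. The part of free RNA in the order of classes was not tested. Adipocytes read 30.9 CPM (interval 23.6 to 39.8; 60 UMIs) in HF-PBS and 28.5 CPM (25.3 to 32.0; 284 UMIs) in HF-HHT. APCs read 31.9 CPM (27.2 to 37.2) and 37.0 CPM (30.2 to 44.9). Macrophages read 33.2 CPM (30.8 to 35.7) and 37.6 CPM (34.0 to 41.4). The 2 libraries' intervals overlapped in each of these 3 classes, and the log2 ratios were -0.12 (-0.52 to 0.31), 0.21 (-0.16 to 0.58) and 0.18 (-0.00 to 0.36), the last of which was -0.02 with TMM scaling.

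The targets were less even. The orders of classes given here and below leave out any class with under 5 UMIs of the gene in that library, whose intervals were wide. Psat1 and Sesn2 were highest in adipocytes of HF-PBS. Psat1 read 44.4 CPM there (35.5 to 54.8), apart from the next class, dividing cells, at 17.6 CPM (12.3 to 24.3). Sesn2 read 32.0 CPM in adipocytes (24.5 to 41.0), and the interval of the next class, monocytes and dendritic cells at 12.9 CPM (5.17 to 26.5), overlapped it. Slc7a11 was highest in macrophages of HF-PBS at 26.6 CPM (24.4 to 28.8), again with an overlapping neighbor, the monocytes and dendritic cells at 18.4 CPM (8.81 to 33.8), and of the 5 classes in this order it was lowest in adipocytes, at 3.09 CPM (1.14 to 6.74). Outside the erythroid-like cluster, Atf5 was higher in mesothelial cells, APCs and adipocytes (19.0, 16.2 and 9.80 CPM, with overlapping intervals between neighbors) than in macrophages (3.51 CPM, 2.77 to 4.40). Mthfd2 was highest in monocytes and dendritic cells, dividing cells and lymphocytes, between 19.8 and 29.4 CPM with overlapping intervals. Chac1 was at the edge of detection, with 17 UMIs in all kept HF-PBS nuclei and 42 in HF-HHT, 9 and 24 of them in adipocytes.

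**Figure D1:**
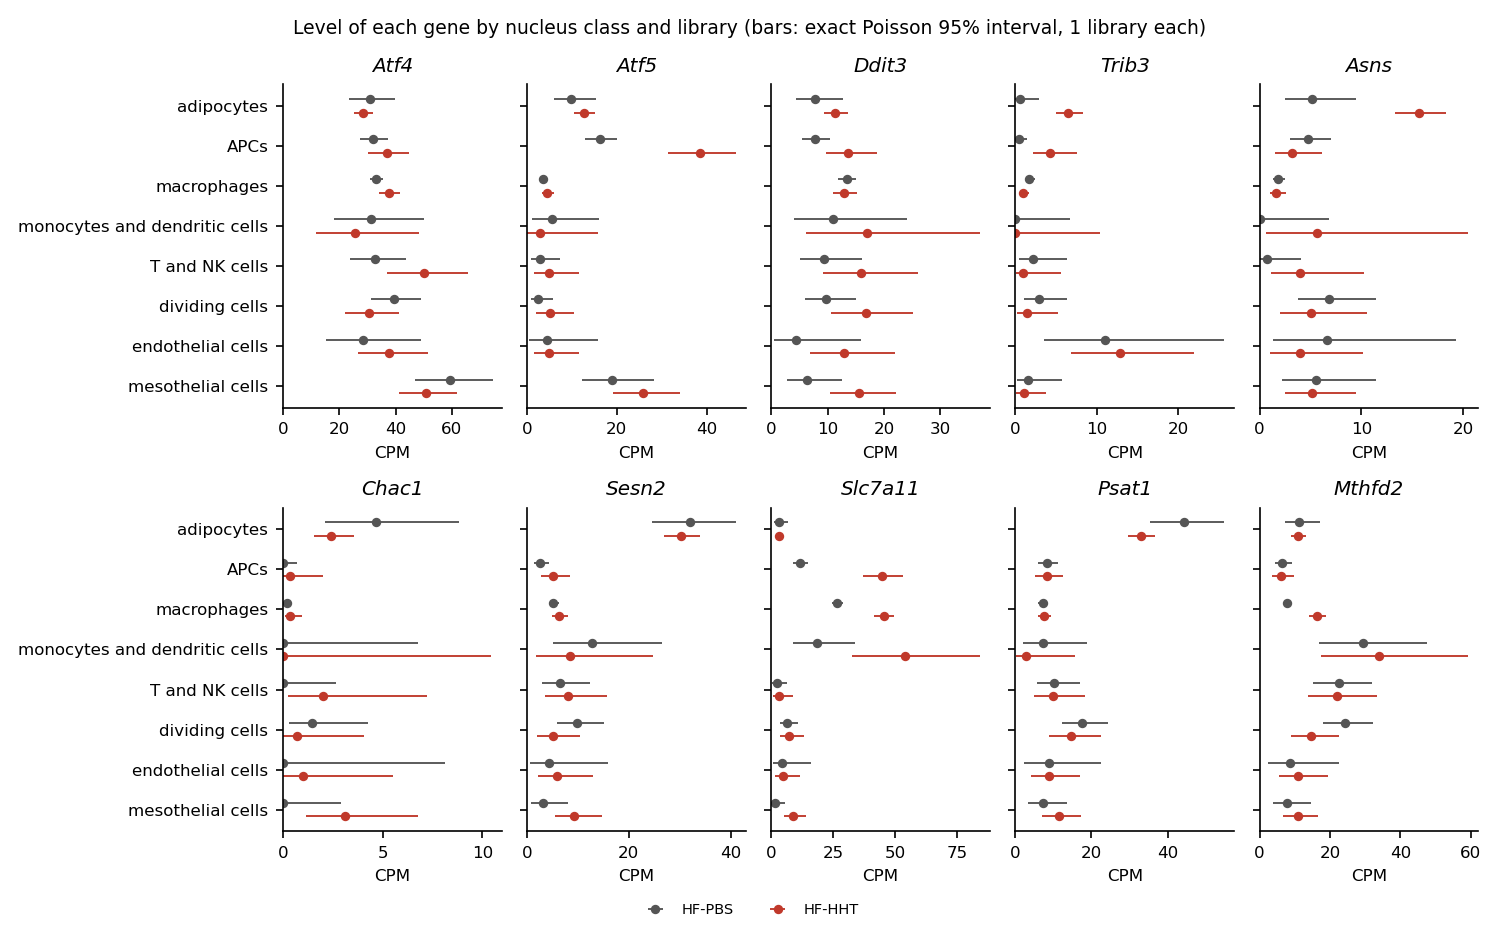
Level of each of the 10 genes (horizontal axis, CPM, own scale per panel) in 8 classes of nuclei (vertical axis), with HF-PBS in gray and HF-HHT in red; points are the class sums of 1 library each and bars the exact Poisson 95% interval. The red and gray bars stand apart for Asns and Trib3 in adipocytes, Atf5, Slc7a11 and Trib3 in APCs, and Slc7a11 and Mthfd2 in macrophages, while those of Atf4 overlap in the adipocytes, APCs and macrophages.

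In adipocytes, 2 of the 10 genes, Asns and Trib3, were at least 1.5-fold higher in HF-HHT, and Chac1 was at least 1.5-fold lower. Chac1 was under that size without upper limits on UMIs and genes (log2 ratio -0.06), with every barcode of at least 500 UMIs (-0.55) and with equal weight of nuclei (-0.37). These counts stand beside 35.5% higher and 12.4% lower of the 12573 genes measured in the class, and the median log2 ratio of the 10 genes was 0.00 where that of all genes was 0.31. With TMM scaling 2 were higher and 2 lower, beside 28.2% and 16.9% of all genes measured in the class. The 10 genes together read 149.6 and 155 CPM in the control and treated library, a log2 ratio of 0.05 (-0.13 to 0.23) that became -0.15 with TMM scaling.

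The 2 genes that stood out in adipocytes were low in the control. Asns held 10 UMIs in 5 of 150 nuclei in HF-PBS (5.16 CPM, 2.47 to 9.48) and 156 UMIs in 134 of 844 nuclei in HF-HHT (15.7 CPM, 13.3 to 18.3). The intervals did not overlap, and the log2 ratio was 1.60 (0.68 to 2.69). Trib3 held 1 UMI in HF-PBS adipocytes (0.516 CPM, 0.0131 to 2.87) and 65 UMIs in 52 nuclei in HF-HHT (6.52 CPM, 5.03 to 8.31). Its log2 ratio was 3.66 (1.13 to 8.99), a wide interval that rests on 1 control UMI. Of the 52 HF-HHT adipocyte nuclei with a Trib3 UMI, 10 also held an Asns UMI. With every nucleus thinned to 2000 UMIs, Asns was found in 0.671% (0.0170 to 3.68) of HF-PBS and 3.46% (2.33 to 4.94) of HF-HHT adipocytes, and Trib3 in 0 of 149 (0 to 2.45) and 0.956% (0.414 to 1.87), so the intervals of these shares overlapped. Unthinned, T and NK cells, a shallower class, held Asns in 0.151% and 0.742% of nuclei and Trib3 in 0.454% and 0.186%.

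Asns in HF-HHT adipocytes lay under the erythroid-like cluster (33.5 CPM) and over every other class of that library with at least 5 UMIs, of which mesothelial cells were next at 5.17 CPM (2.48 to 9.51). Both genes also differed in barcodes of free RNA, which hold RNA released from broken cells: Asns read 3.89 and 11.1 CPM there and Trib3 1.89 and 4.73 CPM. Free RNA was estimated at 2.95% and 3.61% of adipocyte UMIs, and with it subtracted the log2 ratios were 1.61 for Asns and 3.80 for Trib3.

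For the other genes the intervals of the 2 adipocyte levels overlapped. Chac1 read 4.64 CPM (2.12 to 8.81) in HF-PBS and 2.41 CPM (1.54 to 3.58) in HF-HHT, and the interval of its log2 ratio of -0.95 reached from -2.10 to 0.34. Psat1, the serine synthesis enzyme, read 44.4 CPM and 33.0 CPM (29.5 to 36.8), a log2 ratio of -0.43 (-0.77 to -0.07) that was under 1.5-fold but over it with TMM scaling at -0.62. Sesn2 read 32.0 and 30.3 CPM and Mthfd2 11.3 and 10.9 CPM. The log2 ratios of these and of Slc7a11 lay between -0.08 and 0.05, all with intervals that held 0. Ddit3 and Atf5 had log2 ratios of 0.55 (-0.23 to 1.44) and 0.37 (-0.33 to 1.15).

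RNA of macrophages was higher in the HF-PBS adipocytes. The 12 macrophage markers summed to 1639 CPM in adipocytes of the control and to 242 CPM after HHT, of which Mertk alone gave 1365 and 126 CPM, and the other 11 markers gave 274 and 116 CPM, with 1 of the 12 at 0 in HF-PBS and none at 0 in HF-HHT. The 10 erythroid markers summed to 13.9 and 175 CPM. Without the 24 HF-PBS and 47 HF-HHT nuclei in which those 11 markers passed 500 CPM, the log2 ratios of Asns and Trib3 were 1.47 and 3.51, and Ddit3 passed 1.5-fold at 0.69. The part of erythroid RNA was not tested.

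**Figure D2:**
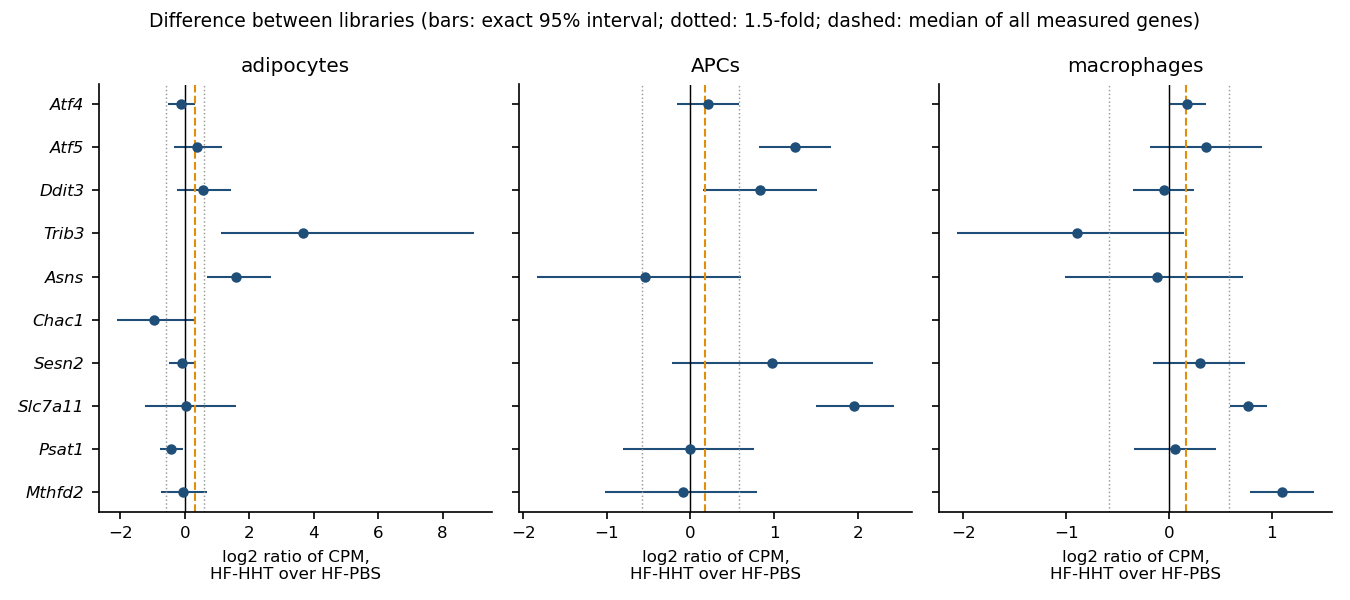
Log2 ratio of CPM in HF-HHT over HF-PBS (horizontal axis, own scale per panel) for the 10 genes in adipocytes, APCs and macrophages; points are class sums, bars exact 95% intervals, dotted lines mark 1.5-fold and the dashed line the median of all measured genes (0.31, 0.17 and 0.17). Genes under 20 UMIs have no point. Trib3 and Asns lie right of the dotted line in adipocytes, Slc7a11, Atf5, Sesn2 and Ddit3 in APCs, and Mthfd2 and Slc7a11 in macrophages.

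In APCs, 4 of the 8 measured genes were at least 1.5-fold higher in HF-HHT and none was lower, beside 23.1% higher and 7.88% lower of the 12183 genes measured in the class. With TMM scaling 4 were higher and 1, Asns, lower, beside 16% and 12.5% of all genes measured in the class. The median log2 ratio of the 8 genes was 0.52 where that of all genes was 0.17, and the 10 genes summed had a log2 ratio of 0.84 (0.65 to 1.04). Of the 455 HF-PBS UMIs in this sum, Slc7a11 and Atf5 held 58 and 82. Of the 448 HF-HHT UMIs they held 124 and 107, so the sum leans on these 2 genes and does not describe each of the 10. The 2 largest differences were those of the cystine carrier Slc7a11 and of Atf5. Slc7a11 read 11.4 CPM (8.68 to 14.8; 58 UMIs) in HF-PBS and 44.5 CPM (37.1 to 53.1; 124 UMIs) in HF-HHT. The level was 3.90-fold higher (2.83 to 5.42). Atf5 read 16.2 CPM (12.8 to 20.1; 82 UMIs) and 38.4 CPM (31.5 to 46.5; 107 UMIs), a log2 ratio of 1.25 (0.82 to 1.68). Neither gene's intervals overlapped between the libraries.

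The higher Slc7a11 level in APCs came with more nuclei that held it. A UMI of Slc7a11 was found in 33 of 751 nuclei (4.39%) of the control and 70 of 677 (10.3%) after HHT, although the median nucleus was shallower in HF-HHT (3343 against 5800 UMIs). With every nucleus thinned to 2000 UMIs, which left out 42 and 151 shallower nuclei, the shares were 1.69% (0.878 to 2.94) and 7.22% (5.16 to 9.78). T and NK cells, taken as a class with little of the gene, showed it in 0.454% and 0.557% of nuclei, at medians of 1748 and 1542 UMIs. At finer clustering, both APC clusters with enough nuclei in each library showed the difference. In the cluster led by Gpr39 and Bmper (565 and 400 nuclei) Slc7a11 read 13.02 and 51.8 CPM, and in the cluster led by Sema3e and Opcml (153 and 157 nuclei) 6.16 and 36.7 CPM. The log2 ratios of Atf5 in the same 2 clusters were 1.29 (0.79 to 1.80) and 1.29 (0.09 to 2.56).

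Ddit3, the CHOP gene, read 7.68 CPM (5.46 to 10.5) in HF-PBS APCs and 13.7 CPM (9.66 to 18.7) in HF-HHT APCs, a log2 ratio of 0.83 (0.15 to 1.51). Sesn2 passed 1.5-fold on 13 and 14 UMIs, with a log2 ratio of 0.97 whose interval held 0 (-0.22 to 2.18). Trib3 was under the minimum, with 2 and 12 UMIs. The genes of amino acid and folate metabolism were not higher: Psat1 read 8.27 and 8.26 CPM and Mthfd2 6.50 and 6.11 CPM. Asns read 4.73 and 3.23 CPM, a log2 ratio of -0.55 (-1.84 to 0.61) that passed 1.5-fold with TMM scaling at -0.74. RNA of other cells differed in these nuclei. The 12 adipocyte markers summed to 252 CPM in HF-PBS APCs and 560 CPM in HF-HHT APCs, and the 10 erythroid markers to 65.4 and 308 CPM. No adipocyte marker was at 0 in either library, and 3 erythroid markers were at 0 in HF-PBS. Their part in the APC values was not tested. The level of Slc7a11 in barcodes of free RNA (19.1 and 17.4 CPM) and that of Atf5 (9.46 and 17.2 CPM) lay under their levels in HF-HHT APCs, and with free RNA subtracted the log2 ratios were 2.17 and 1.27.

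In macrophages, Mthfd2 and Slc7a11 were at least 1.5-fold higher and Trib3 at least 1.5-fold lower among 9 measured genes. This is 22.2% higher and 11.1% lower, beside 25.8% higher and 8.46% lower of the 14393 genes measured in the class, and the median log2 ratio of the 9 genes, 0.18, was close to that of all genes, 0.17. With TMM scaling 1 gene was higher, Mthfd2, and 1 lower, beside 18.7% and 12.8% of all genes measured in the class. Mthfd2 read 7.67 CPM (6.55 to 8.93; 166 UMIs) in HF-PBS and 16.4 CPM (14.1 to 19.0; 178 UMIs) in HF-HHT. Its log2 ratio was 1.10 (0.78 to 1.41), and the share of nuclei with a UMI was 4.13% and 7.15%, or 1.52% and 3.63% after thinning to 2000 UMIs. APCs, where Mthfd2 was lowest, held it in 4.13% and 2.22% of nuclei, or 1.27% and 1.52% after thinning, so the thinned share of HF-PBS macrophages was no higher than that of HF-HHT APCs. Trib3 read 1.71 CPM and 0.923 CPM on 37 and 10 UMIs, with a log2 ratio of -0.89 (-2.06 to 0.15), and lay under its level in free RNA in both libraries. Ddit3 read 13.4 and 12.9 CPM, Psat1 7.16 and 7.48 CPM and Asns 1.80 and 1.66 CPM, each with an interval of the ratio that held 0.

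Slc7a11 in macrophages read 26.6 CPM (24.4 to 28.8; 575 UMIs) in HF-PBS and 45.4 CPM (41.5 to 49.6; 492 UMIs) in HF-HHT. The log2 ratio of 0.77 (0.60 to 0.95) was under 1.5-fold with TMM scaling at 0.57. Unlike in APCs, the share of nuclei that held a UMI was nearly the same, 171 of 3612 (4.73%) and 106 of 2252 (4.71%), or 2.20% (1.74 to 2.75) and 2.91% (2.21 to 3.76) after thinning. Most of the UMIs lay in few nuclei. The 24 HF-PBS nuclei with 5 or more UMIs of Slc7a11 (0.664% of the class) held 356 of the 575 UMIs, and the 28 such HF-HHT nuclei (1.24%) held 364 of 492, up to 53 and 49 UMIs in a nucleus. These nuclei were picked by the gene's own value, so their number is a description. The remaining nuclei read 10.2 and 12.0 CPM, a log2 ratio of 0.23 (-0.10 to 0.55). The nuclei rich in Slc7a11 together held 8 and 8 UMIs of Atf4 and 2 and 0 of Ddit3.

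**Figure D3:**
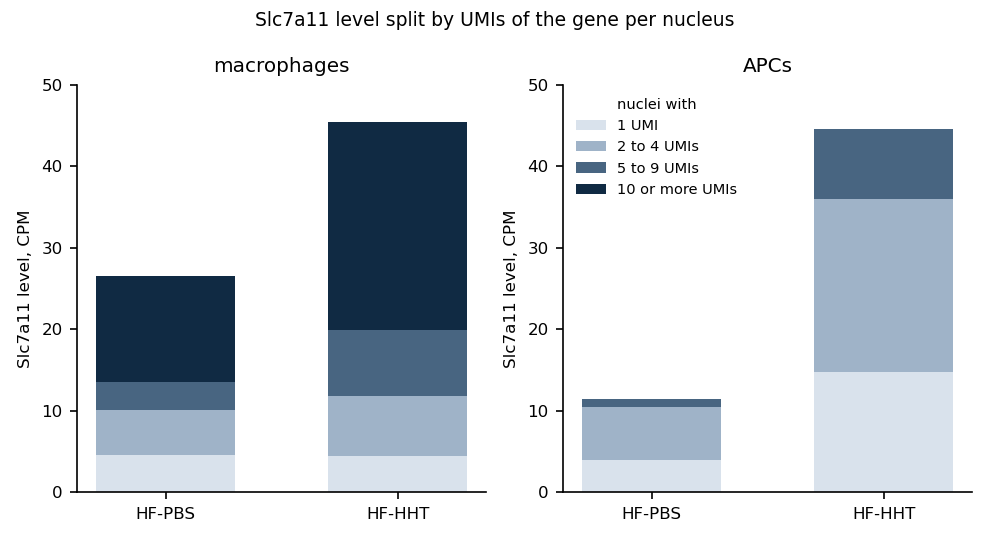
Slc7a11 level (vertical axis, CPM) of macrophages and APCs in both libraries, split by how many UMIs of the gene a nucleus held. In macrophages the 13 HF-PBS and 14 HF-HHT nuclei with 10 or more UMIs gave 12.99 and 25.5 CPM of the totals of 26.6 and 45.4 CPM, whereas no APC nucleus held 10 or more.

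The macrophages of the 2 libraries lay partly in different finer clusters. A cluster led by Fpr3 and Gpr141 held 9.03% of HF-PBS and 36.5% of HF-HHT macrophages, and the cluster led by F13a1 and Ms4a4a held 35.4% and 25.2%. The Fpr3 and Gpr141 cluster best matched the monocyte-like marker set (Chil3, Ccr2, Ly6c2 and others). Clusters led by Ptchd1 and Gm37168 and by Tmem267 and Tm4sf19 held 31.0% and 19.1% of HF-PBS and 18.7% and 12.0% of HF-HHT macrophages. In the Fpr3 and Gpr141 cluster Slc7a11 read 41.8 and 81.6 CPM (log2 ratio 0.97, 0.57 to 1.38) and Mthfd2 9.94 and 23.8 CPM (1.26, 0.46 to 2.15). In the F13a1 and Ms4a4a cluster, where both genes were low, Slc7a11 read 3.67 and 9.76 CPM (1.41, 0.49 to 2.33) and Mthfd2 3.34 and 11.1 CPM (1.73, 0.83 to 2.66). In the 2 clusters that best matched the lipid-associated marker set (Gpnmb, Trem2, Spp1 and others), the log2 ratios were smaller and their intervals held 0. Slc7a11 had log2 ratios of -0.08 (-0.63 to 0.45) in the Ptchd1 and Gm37168 cluster and 0.29 (-0.02 to 0.60) in the Tmem267 and Tm4sf19 cluster, and Mthfd2 0.49 (-0.21 to 1.15) and 0.53 (-0.23 to 1.24). The Tmem267 and Tm4sf19 cluster held 16 of the 24 Slc7a11-rich nuclei of HF-PBS, and the Fpr3 and Gpr141 cluster 20 of the 28 of HF-HHT. In the Tmem267 and Tm4sf19 cluster Atf4 read 39.0 and 56.7 CPM (0.54, 0.18 to 0.89), under 1.5-fold, and Ddit3 18.7 and 30.8 CPM (0.72, 0.21 to 1.21). The difference between this cluster and the whole class was not tested. The neutrophil marker list summed to 45.6 CPM in HF-PBS macrophages and 189 CPM in HF-HHT macrophages, and the erythroid list to 18.3 and 185 CPM, with 2 and 4 of their markers at 0 in HF-PBS and none in HF-HHT. Their part in these values was not tested.

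Over the other 8 classes with at least 20 nuclei in each library, 29 pairs of gene and class were measured. Of these, 9 were at least 1.5-fold higher in HF-HHT (31.0%, beside 23.6% of all pairs of gene and class) and 3 lower (10.3%, beside 14.2%). TMM scaling would move the log2 ratios by 0.49 in the erythroid-like cluster and by between -0.41 and -0.04 in the others. The interval stayed over 0 in 4 of the 9 higher pairs. Mthfd2 in the erythroid-like cluster rested on 1 HF-PBS UMI and on HF-PBS nuclei that left the cluster at finer clustering. Slc7a11 in the class labeled monocytes and dendritic cells, led by Flt3 and Clec9a, read 18.4 CPM on 10 UMIs and 53.8 CPM on 19 UMIs. Its log2 ratio there was 1.55 (0.37 to 2.82). Ddit3 in mesothelial cells read 6.34 CPM on 8 UMIs and 15.5 CPM on 30 UMIs, a log2 ratio of 1.29 (0.13 to 2.63). Atf4 in T and NK cells read 32.7 CPM and 49.9 CPM, a log2 ratio of 0.61 (0.00 to 1.23). With TMM scaling this ratio was 0.46, under 1.5-fold. The 3 lower pairs, Sesn2 and Mthfd2 in dividing cells and Atf5 in the erythroid-like cluster, all had intervals that held 0. Without the erythroid-like cluster, 8 pairs were higher and 2 lower. The share of all pairs without that cluster is not given here, so these counts are a description and no result about the 10 genes.

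Taken over all kept nuclei, the difference between the libraries was close to that computed from the mix of classes for some of the 10 genes and not for others. For each gene, the level that HF-PBS classes would give if they were present in the shares of HF-HHT was computed, with the 2 epithelial classes, missing in HF-PBS, kept at their HF-HHT level. Sesn2 read 6.54 and 17.4 CPM, a log2 ratio of 1.41 (1.19 to 1.63), and the computed level gave 1.37. The duct-like nuclei, which entered the computed level with their own HF-HHT value, held 135 of the 587 HF-HHT UMIs of Sesn2. That part of the match compares HF-HHT with itself. Psat1 had a log2 ratio of 0.75 (0.56 to 0.95) against 1.003 from the mix, and Chac1 1.39 (0.55 to 2.30) against 1.71. All 3 genes were thus higher over all HF-HHT nuclei and not higher in HF-HHT adipocytes, the class in which each was highest in HF-PBS. Asns and Trib3 went past the mix, with log2 ratios of 1.34 (0.99 to 1.69) and 1.21 (0.74 to 1.69) against 0.31 and -0.16. Slc7a11 was the reverse case: its overall log2 ratio of 0.20 (0.05 to 0.35) stood against -0.66 from the mix, and macrophages, which held 84.8% and 67.1% of its UMIs, were fewer in HF-HHT. Atf4 was even in both views, at 0.06 (-0.06 to 0.17) and 0.03.

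**Figure D4:**
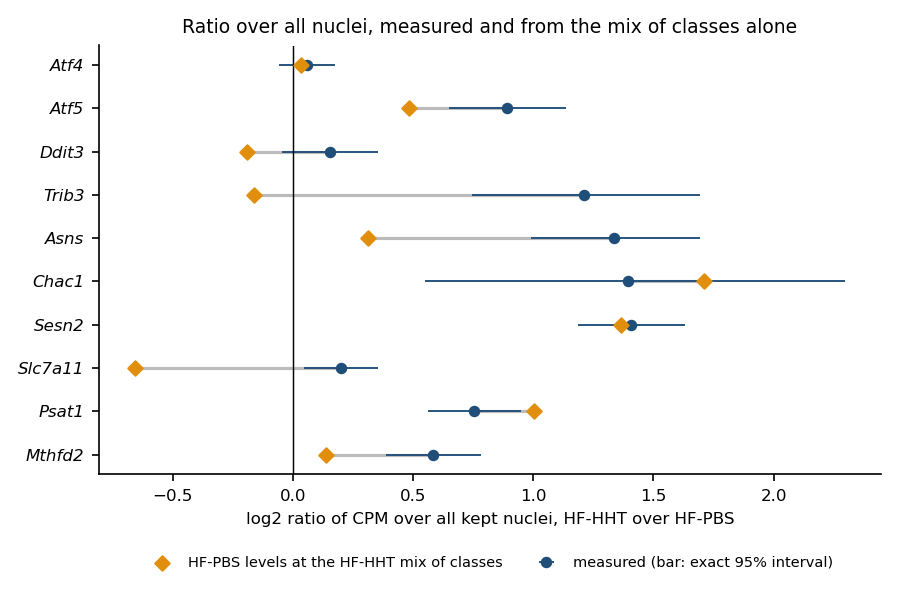
Log2 ratio of CPM over all kept nuclei, HF-HHT over HF-PBS (horizontal axis), for the 10 genes: blue points as measured with exact 95% intervals, orange diamonds as the HF-PBS class levels give at the HF-HHT mix of classes. The diamonds of Atf4, Sesn2 and Chac1 lie within the measured interval, those of Trib3, Asns and Slc7a11 far to its left.

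The wider pathway was described with 9 further lists of 140 genes that were chosen with earlier results of these data known, so their counts are no independent evidence of a direction. Together 32 of 130 measured genes were at least 1.5-fold higher and 19 lower in adipocytes, 19 and 10 of 127 in APCs, and 40 and 6 of 132 in macrophages. As shares, 24.6% were higher in adipocytes beside 35.5% of all measured genes, 15.0% in APCs beside 23.1%, and 30.3% in macrophages beside 25.8%, and 14.6%, 7.87% and 4.55% were lower beside 12.4%, 7.88% and 8.46%. With TMM scaling the split became 20 to 25 in adipocytes, 11 to 12 in APCs and 22 to 9 among macrophage genes. The shares of all measured genes with that scaling are given above for each class. The median log2 ratios of 0.12, 0.09 and 0.20 stood beside 0.31, 0.17 and 0.17 for all genes. The counts of single lists that follow stand beside the same shares of all measured genes. Below, each pair of levels is that of HF-PBS followed by that of HF-HHT, and the values after it are the log2 ratio and its interval.

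Upstream, among 16 genes of the eIF2alpha kinases, their mitochondrial relay, eIF2B subunits and phosphatase subunits, 4 were higher and 1 lower in adipocytes, 5 and 0 in APCs, and 5 and 0 in macrophages. Ppp1r15a (GADD34), the stress-induced subunit that reverses eIF2alpha phosphorylation and is itself a target of the response, read 9.80 and 5.62 CPM in adipocytes (-0.80, -1.58 to 0.03) and 3.79 and 6.64 CPM in macrophages (0.81, 0.33 to 1.28). Its constitutive relative Ppp1r15b was higher in APCs (15.2 and 29.5 CPM; 0.96, 0.49 to 1.43). The kinase gene Eif2ak4 (GCN2) was at 89.3 and 71.7 CPM in macrophages, and Eif2ak2 (PKR) at 47.7 and 66.1 CPM in APCs, both under 1.5-fold.

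Among 14 partners and other regulators, 3 were higher and 4 lower in adipocytes, 2 and 1 in APCs, and 7 and 2 in macrophages. Ddit4 (REDD1), an mTORC1 inhibitor induced by ATF4, hypoxia and glucocorticoids, was lower in these 3 classes: 41.3 and 3.61 CPM in adipocytes (-3.51, -4.12 to -2.93), 18.3 and 1.80 CPM in APCs (-3.35, -5.01 to -2.08) and 11.9 and 2.58 CPM in macrophages (-2.21, -2.82 to -1.64). Eif4ebp1, which encodes the translation repressor 4E-BP1 and is another ATF4 target, was higher in adipocytes, at 41.3 and 91.3 CPM (1.15, 0.82 to 1.49), but not in APCs (24.4 and 20.8 CPM). The C/EBP partner gene Cebpb was higher in macrophages (59.0 and 141 CPM; 1.25, 1.15 to 1.36), where Nupr1, a chromatin protein of the stress response, was also higher (6.24 and 19.8 CPM; 1.67, 1.35 to 1.99) and Atf3, a target and repressor, lower (122 and 74.2 CPM; -0.72, -0.84 to -0.60). Jun was higher in APCs (16.0 and 65.0 CPM; 2.03, 1.64 to 2.42), and Fos lower in adipocytes (34.6 and 12.0 CPM; -1.52, -1.96 to -1.07).

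The amino acid genes, to which Asns and Psat1 belong by function, did not all differ in 1 direction. Of the synthesis list, 4 of 14 measured genes were higher and 4 lower in adipocytes, 1 of 13 higher and 7 lower in APCs, where the median log2 ratio was -0.72, and 3 of 12 higher and 2 lower in macrophages. In adipocytes the phosphatase of serine synthesis, Psph, was higher (5.67 and 14.5 CPM; 1.35, 0.47 to 2.38), while the transaminase genes Gpt2 (107 and 46.2 CPM; -1.22, -1.46 to -0.97) and Bcat1 (117 and 22.4 CPM; -2.38, -2.65 to -2.11) were lower. Bcat1 was also lower in APCs (81.0 and 28.0 CPM; -1.53, -1.90 to -1.18), and Gpt2 in macrophages (40.9 and 20.1 CPM; -1.02, -1.24 to -0.81). Of the carriers, 1 of 14 was higher and 5 lower in adipocytes: the neutral amino acid exchanger gene Slc7a8 read 375 and 66.0 CPM (-2.51, -2.66 to -2.35), the cationic carrier gene Slc7a1 24.8 and 13.4 CPM (-0.89, -1.38 to -0.38), and Slc43a1 18.6 and 61.2 CPM (1.72, 1.24 to 2.25). The glutamine carrier gene Slc1a5 was higher in macrophages (40.5 and 68.6 CPM; 0.76, 0.62 to 0.90). Of 20 aminoacyl-tRNA synthetase genes, 6 were higher and 1 lower in adipocytes, 1 and 0 in APCs, and 4 and 0 in macrophages, where Wars read 14.7 and 38.2 CPM (1.38, 1.17 to 1.60). Wars is also an interferon-gamma target.

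The list of endoplasmic reticulum chaperones and branches of the unfolded protein response had different counts in the 3 classes, a difference that was not tested. In macrophages 10 of 20 measured genes were higher and none lower, with a median log2 ratio of 0.59, beside 25.8% higher and 8.46% lower of all genes measured in the class. With TMM scaling 6 of the 20 were higher and none lower, beside 18.7% and 12.8% of all genes. In adipocytes 2 of 19 were higher and 2 lower, and in APCs 1 and 0 of 19. BiP is the protein that the study proposes as a target of HHT. In whole adipose tissue of HF-fed mice, the study reported less of this protein after HHT. The values here are RNA of nuclei by class and not protein. Hspa5, which encodes the chaperone BiP, read 87.5 CPM (1894 UMIs) in HF-PBS macrophages and 190 CPM (2058 UMIs) in HF-HHT macrophages, a log2 ratio of 1.12 (1.03 to 1.21). It read 51.6 and 45.1 CPM in adipocytes (-0.19, -0.51 to 0.13) and 142 and 149 CPM in APCs (0.07, -0.11 to 0.25). The chaperone gene Calr was higher in macrophages (38.1 and 111 CPM; 1.54, 1.41 to 1.67) and in APCs (48.5 and 84.4 CPM; 0.80, 0.54 to 1.06), and Sdf2l1 in macrophages (1.66 and 7.20 CPM; 2.11, 1.53 to 2.73). The sensor genes Atf6 and Ern1 were under 1.5-fold in macrophages, at -0.20 and -0.07. These macrophage values are sums over a class whose finer clusters differed in share between the libraries, and the part of that was not tested.

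Other outputs differed gene by gene. Of 18 secreted and signaling targets, 4 of 14 measured genes were higher and 1 lower in adipocytes, 4 and 1 of 13 in APCs, and 5 and 0 of 16 in macrophages. The angiogenic factor gene Vegfa was higher in adipocytes (429 and 879 CPM; 1.03, 0.93 to 1.14) and in APCs (28.8 and 65.4 CPM; 1.18, 0.86 to 1.51), and the proapoptotic gene Pmaip1 (Noxa) in macrophages (3.37 and 14.5 CPM; 2.10, 1.69 to 2.52). The cell cycle inhibitor gene Cdkn1a (p21) was lower in adipocytes (46.4 and 6.02 CPM; -2.95, -3.44 to -2.46). Gdf15, a circulating stress hormone gene, read 8.23 and 6.55 CPM in macrophages (-0.33, -0.75 to 0.08). Slc7a11 is also a target of the antioxidant factor NRF2, so that factor's targets were counted beside it. Of 8 measured in APCs, 3 were higher, beside 23.1% of all measured genes. Among them were Gclm at 12.6 and 22.3 CPM (0.82, 0.29 to 1.35) and G6pdx at 15.8 and 28.0 CPM (0.83, 0.36 to 1.30). Txnrd1 at 39.6 and 37.7 CPM (-0.07, -0.42 to 0.28) and Hmox1 at 9.85 and 12.2 CPM (0.31, -0.36 to 0.97) were not among them. Of 9 measured in adipocytes, 4 were higher and 1 lower, beside 35.5% and 12.4%. Slc7a11 itself had a log2 ratio of 0.05 there, with a wide interval (-1.22 to 1.60) that rests on 6 HF-PBS UMIs. Of 9 measured in macrophages, 1 was higher, Gsr at 78.9 and 127 CPM (0.68, 0.58 to 0.79), beside 25.8%. The part of NRF2 in the Slc7a11 values was not tested. In adipocytes Txnrd1 read 27.3 and 73.4 CPM (1.42, 1.02 to 1.85). Of 10 genes of mitochondrial stress, 4 were higher in adipocytes, 1 in APCs and 2 in macrophages, and none was lower. The mitochondrial chaperone gene Hspe1 was higher in adipocytes (3.61 and 7.93 CPM; 1.13, 0.03 to 2.50) and macrophages (6.42 and 13.8 CPM; 1.11, 0.76 to 1.45).

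**Figure D5:**
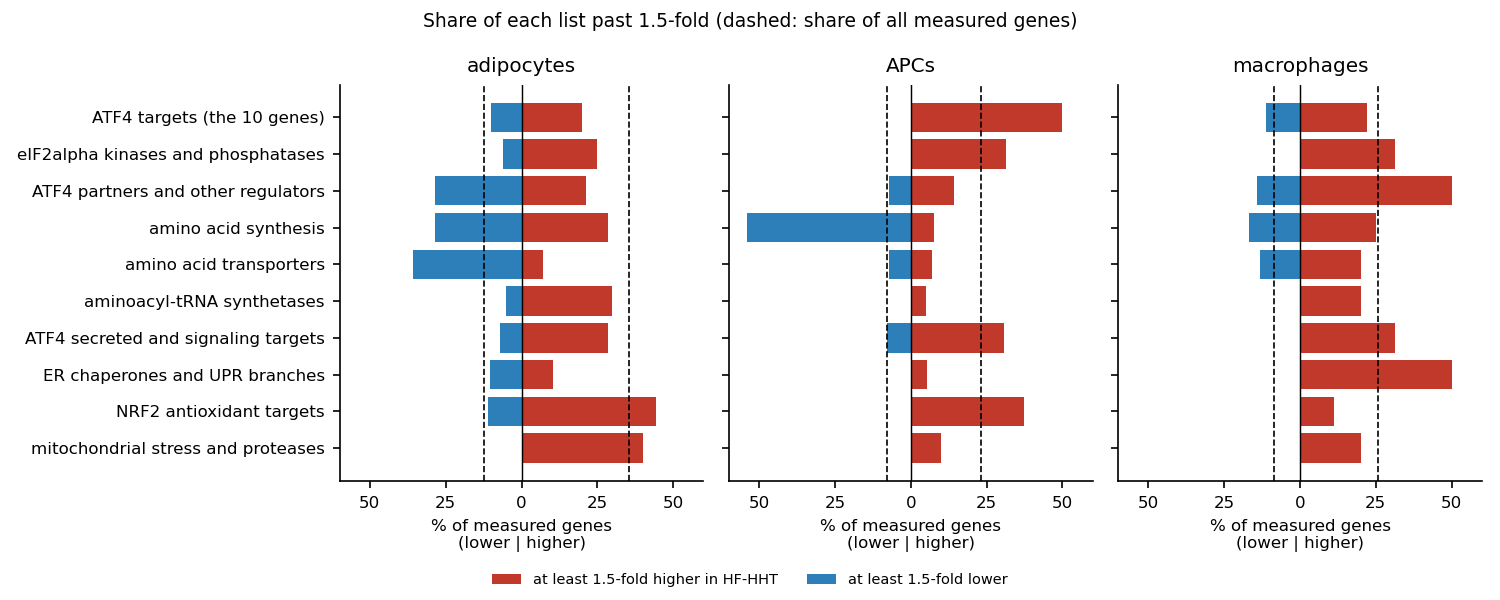
Share of measured genes at least 1.5-fold higher (red, right) or lower (blue, left) in HF-HHT (horizontal axis, percent) for the 10 targets and 9 further lists (vertical axis) in adipocytes, APCs and macrophages; dashed lines give the same share over all measured genes. In APCs 4 of 8 measured targets are higher and 7 of 13 amino acid synthesis genes lower, and in macrophages 10 of 20 chaperone genes are higher.

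The genes most like Atf4 in level over the 24 points of class and library, out of 6918 genes compared, were Lars2, Pabpc1 and Aup1, with Pearson correlations of log2(CPM + 1) of 0.85, 0.83 and 0.82. The points share libraries, depth and free RNA, and the correlations are a description. Only genes with at least 20 UMIs in enough of the points were compared. Targets with few UMIs, such as Chac1, Trib3 and Asns, could not be among these 3. No reading of the 9 targets is drawn from their absence.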

How the data were processed

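Single-nucleus RNA-seq was made from DAPI-stained, flow-sorted nuclei of frozen epididymal WAT with the 10x Genomics 3′ kit, 1 library per treatment. The deposited values are raw UMI counts per gene and barcode, made by the authors with Cell Ranger (version 5.0.0 per the labels, whereas the matrix headers name Cell Ranger 4) on mm10, with no normalization. The sources used here do not say whether intron reads were counted.

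Barcodes were called as nuclei by depth and by a test against the free RNA profile (false discovery rate 0.01, at least 500 UMIs). Nuclei needed at least 400 genes, at most 0.5% mitochondrial UMIs, and UMI and gene numbers under the 95th percentile, and 479 HF-PBS and 463 HF-HHT likely doublets were removed with Scrublet in scanpy 1.11.5. Both libraries were clustered together in Seurat 5.3.0 into 14 clusters without the pathway genes. Clusters were named from marker lists. UMIs were summed per class and library and divided by the class total to give CPM. Intervals are exact Poisson (levels), Clopper-Pearson (shares) and conditional binomial (ratios). With 1 library per treatment no test was run. TMM factors came from edgeR 4.0.16, used for scaling only. Free RNA was taken from barcodes ranked 45000 to 90000 by depth. The steps were tested on simulated data.

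The 10 genes, the marker lists and the pathway lists were chosen with earlier results of these data known. Named pathway genes were, per list and class, up to 2 of the highest and 2 of the lowest log2 ratios with at least 50 UMIs in the higher library and 3 in the other, plus Hspa5, and the text gives a part of them.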

Additional observations from a re-analysis of the deposited data

Results flagged for a closer look

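The duct-like epithelial nuclei, found in HF-HHT and at 0 nuclei in HF-PBS, entered no comparison, but 4 of the 10 genes were well detected there. Sesn2 read 44.6 CPM (37.4 to 52.8; 135 UMIs), which lay over the 30.3 CPM of HF-HHT adipocytes with no overlap of the intervals. Atf4 read 22.8 CPM, Mthfd2 16.5 CPM and Psat1 15.9 CPM.

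Barcodes of free RNA lie outside the classes of nuclei, and 7 of the 10 genes differed there between the libraries beyond counting error. How many of all genes differed there in the same way was not counted, so this number is a description and no result about these genes. The log2 ratios of HF-HHT over HF-PBS were 2.75 for Chac1, 1.51 for Asns, 1.33 for Sesn2, 1.32 for Trib3, 0.95 for Psat1, 0.86 for Atf5 and 0.69 for Mthfd2. Chac1 rested on 4 and 24 UMIs. Atf4 read 77.1 and 79.2 CPM in free RNA, and the intervals of the ratios of Atf4, Ddit3 and Slc7a11 held 0. The same 7 genes were the ones whose level over all kept nuclei was higher in HF-HHT by more than 0.5 on the log2 scale.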

How the results depend on the processing

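No paired analysis was possible because each treatment had 1 library. Over 10 alternatives, 245 of 252 log2 ratios of single genes stayed within the counting interval of the main value, 7 left it and 0 of the called ones turned sign. The 7 were Asns in adipocytes (3.07 with every barcode of at least 500 UMIs), Atf4 in macrophages (-0.02 with TMM, -0.04 with median-of-ratios scaling) and Slc7a11 in macrophages (0.57 and 0.56 with these scalings, 0.98 without upper limits, 0.97 with equal weight of nuclei). Trib3 in adipocytes ranged from 2.62 to 4.14, Slc7a11 in APCs from 1.74 to 2.26, Atf5 in APCs from 1.02 to 1.27, Mthfd2 in macrophages from 0.88 to 1.29 and Chac1 in adipocytes from -1.17 to -0.06. For counts the cause was not tested beyond what each setting changes by construction.

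In adipocytes, the count of lower targets, 1, became 0 without upper limits, with every barcode of at least 500 UMIs, at a minimum of 50 counts and at 2-fold, and 2 with either scaling. The count of higher pathway genes, 32, became 20 with TMM, 19 with median-of-ratios scaling and 13 at 2-fold, that of lower ones, 19, became 10 at 2-fold, and the summed log2 ratio of 0.05 became -0.15 and -0.18 with the 2 scalings. In APCs, the count of higher targets, 4, became 2 at 2-fold, and that of lower ones, 0, became 1 with every barcode, either scaling or free RNA subtracted and 2 with equal weight. The pathway counts of 19 and 10 became 11, 10 and 5 higher with TMM, median-of-ratios scaling and 2-fold, and 4 lower at 2-fold, and the summed ratio of 0.84 became 0.65 and 0.62. In macrophages, the count of higher targets, 2, became 1 with either scaling and at 2-fold, and that of lower ones, 1, became 2 with free RNA subtracted and 0 at a minimum of 50 counts and at 2-fold. The pathway counts of 40 and 6 became 22, 20 and 13 higher and, at 2-fold, 3 lower, and the summed ratio of 0.41 became 0.21, 0.20 and, with equal weight, 0.53. Over the other classes, 9 higher pairs became 5 with every barcode or median-of-ratios scaling, 14 and 3 at minimums of 10 and 50 counts and 4 at 2-fold, and 3 lower pairs became 1 with every barcode, at clustering resolution 1.0, at a minimum of 50 counts and at 2-fold, and 5 at a minimum of 10.

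The alternatives without the erythroid-like cluster and without adipocyte nuclei rich in macrophage RNA were chosen after seeing the data. In the second, 3 targets were higher, 1 was lower and the summed log2 ratio was 0.09. The shares of all measured genes in that setting are not given here, so these counts are a description. Depth limited Chac1, Trib3 and Asns most, and the 150 HF-PBS adipocyte nuclei limited the adipocyte levels of HF-PBS and the ratios made from them.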
